A study of Mus musculus with 6 samples.

Results

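Integrins and laminins were taken from the mRNA table of a study of bisphenol A (BPA) by gene symbol, as every integrin α or β subunit and every laminin α, β or γ chain. There were 32 such genes among 22127, made up of 21 integrin subunits and 11 laminin chains. The treated culture was GC-2 spd(ts), a single mouse line derived from spermatocytes, whose immortalising genes are known to be the large T antigen of a polyomavirus and a p53 that is active at low temperature only, kept for 48 h in medium with 10% serum and 120 µM BPA dissolved in dimethyl sulfoxide. The control culture was the same line kept for 48 h in medium with 10% serum and 0.1% dimethyl sulfoxide, that is 0 µM BPA. Both cultures had first spent 12 h without serum. Each gave 1 mRNA library and 1 library of circular RNA (circRNA), so no difference given here has a replicate check, no p-value was computed, and anything else that differed between the cultures is part of each ratio.

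Integrins are receptors made of 1 α and 1 β subunit that bind proteins of the extracellular matrix outside the cell and, through talin and kindlin, the actin cytoskeleton inside it. Laminins are secreted trimers of 1 α, 1 β and 1 γ chain that form the sheet of basement membranes, and several integrins are their receptors. In the testis, the basement membrane under the seminiferous epithelium contains laminins, and integrins hold Sertoli cells and spermatogonia to it.

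The mRNA libraries held 33071378 reads with BPA and 32312872 in control. Of the markers of other cell types, the fibroblast genes Col1a1, Col1a2 and Acta2 were abundant. Levels are in RPKM (reads per 1000 bases of exon, scaled by the library total). The 6 listed of 8 fibroblast markers summed to 298 with BPA and 633 in control. Of this, Col1a1 was 181 and 374, Acta2 59.8 and 145 and Col1a2 51.4 and 104, BPA first. Pdgfrb was at 4.28 and 7.73, Pdgfra at 1.37 and 1.98 and Dcn at 0.0414 and 0. Spermatocyte and germ cell markers were at or near 0. Of 11, only Ddx4, with 9 and 0 reads, and Sycp3, with 0 and 6, were listed, BPA first, so the markers did not bear out the spermatocyte label. The 5 listed of 6 Sertoli cell markers held 2417 reads with BPA and 2389 in control, mostly of Gata4, with 1795 and 1959. The other Sertoli markers were higher with BPA, with 525 and 389 reads of Sox9, 33 and 10 of Amh, 26 and 8 of Wt1 and 38 and 23 of Rhox5, BPA first, and the list's median log2 ratio was 0.59 with 2 of 5 past 2-fold. The 4 listed of 5 endothelial markers summed to 0.394 RPKM with BPA and 0.516 in control, mostly of Kdr. They differed in opposite directions, with 77 and 127 reads of Kdr and 5 and 9 of Cdh5, BPA first. Pecam1 had 18 and 3 and Tek 2 and 0. In a culture, fewer cells of a type and less RNA per cell cannot be told apart.

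Most integrin and laminin mRNA came from a few genes, and nearly all of these were slightly lower with BPA. Ratios are log2 of BPA over control, on the deposited scaling and with 1 added to each value, and their 95% intervals cover the counting of reads alone. Of the 32 genes, 30 had at least 10 reads in both libraries together. Their median log2 ratio was -0.27, against 0.02 over all 16870 genes past that filter, and 22 of the 30 were below 0, or 73.3%, against 48.1% of all genes. At a fold of 2, 4 members were lower with BPA (Itgae, Itgb2, Itgb4 and Lamc3), 13.3% of the 30 against 4.61% of all genes, and 2 were higher (Itgb7 and Itgax), 6.67% against 6.88%. At a fold of 1.5, 8 were lower (26.7% against 10.2% of all genes) and 3 higher (10.0% against 13.3%). Counting intervals lay below 0 for 14 members, or 46.7% against 26.5% of all genes, and above 0 for 3, or 10.0% against 28.2%. With at least 50 reads together, Itgb2 and Lamc3 of 22 members were 2-fold lower, where 2.05% of all genes were, and Itgb7 was 2-fold higher, where 3.25% were. The 6 members past 2-fold had 14 to 466 reads in both libraries together. The 11 members with at least 1000 reads were within 2-fold, where 1.36% of the 8628 genes as abundant passed that fold upwards and 0.985% downwards. Of these 11, 10 were below 0, against 51.6% of the genes as abundant, and all 10 had intervals below 0, against 38.0%. The exception was Itgb5, whose interval was above 0, as in 33.7%. The limit of 1000 reads was chosen after the values were seen.

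**Figure D1:**
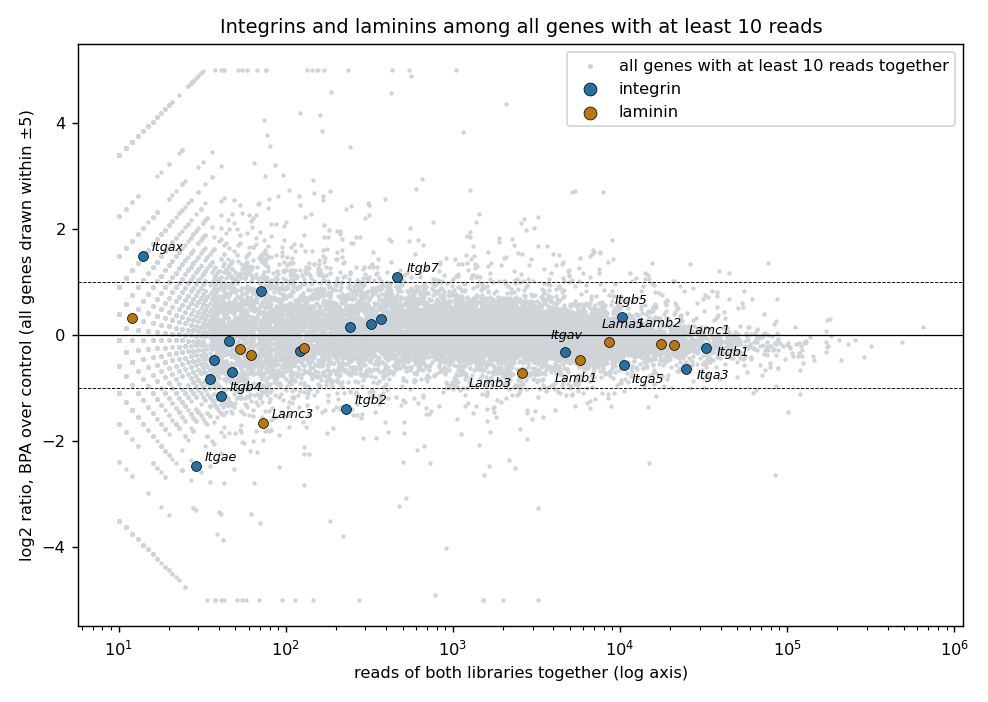
Log2 ratio of BPA over control (vertical axis) against the reads of both libraries together (horizontal log axis) for all 16870 genes with at least 10 reads, with 29 integrins and laminins in colour and dashed lines at 2-fold. The members past 2-fold lie at low counts, and the 10 members drawn with at least 1000 reads lie between -0.71 and 0.35.

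Among the α subunits, 2 held most of the mRNA and both were lower with BPA. Itga3 (chromosome 11, 95044474 to 95076801, GRCm38), the laminin-binding α3 subunit, had 10168 reads with BPA and 14592 in control, a level of 53.8 RPKM with BPA and 79.1 in control. Its log2 ratio was -0.63 (95% interval -0.67 to -0.60), 1.55-fold lower. Itga5 (chromosome 15, 103344286 to 103366763), which pairs with the β1 subunit as a fibronectin receptor, had 4470 reads with BPA and 6107 in control, a level of 27.4 RPKM with BPA and 38.3 in control and a log2 ratio of -0.56 (-0.62 to -0.51). The log2 ratio of Itga5 to Itga3 reads was 0.07 higher with BPA (0.0040 to 0.14). Itgav (chromosome 2, 83724397 to 83806916), the αv subunit that recognises the RGD motif of vitronectin and latent TGF-β, had 2171 reads with BPA and 2503 in control, a level of 6.11 RPKM with BPA and 7.21 in control and a smaller difference of -0.32 (-0.40 to -0.23). In the authors' deposited table Itga3 had the lowest p-value of the members, 0.0515, followed by Lamb3 at 0.0575 and Itga5 at 0.0632. Of the members in the authors' deposited table, 0 had a p-value under 0.05, and the lowest adjusted value was 0.961.

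The other laminin-binding subunits were above 0, with intervals that included it. Itga6, which pairs with β1 or β4, had 212 reads with BPA and 159 in control and a log2 ratio of 0.30 (-2.3e-05 to 0.61). Its interval thus only just included 0, and with library totals as the scale its ratio was 0.38. Itga7, best known from muscle, had 132 reads with BPA and 110 in control and 0.15 (-0.22 to 0.53). Both were a small part of the laminin-binding class. Per length, Itga6 stood at 0.0132 times Itga3 with BPA and 0.00689 times in control. The log2 of the ratio of Itga6 to Itga3 reads was 0.94 higher with BPA than in control (0.63 to 1.24), a value that no scaling of the libraries can move.

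The collagen-binding α subunits were scarce in both libraries. Itga1, Itga10 and Itga11 had 16, 57 and 19 reads with BPA and 21, 65 and 29 in control, and their log2 ratios ran from -0.69 to -0.30 with intervals that all included 0. Itga2 had 1 read with BPA and 0 in control. Itga2b, the αIIb subunit of the platelet fibrinogen receptor, was the fourth α subunit by level, with 179 reads with BPA and 144 in control and a ratio of 0.20 (-0.12 to 0.53). Of the other 4 platelet and megakaryocyte markers, Gp1bb had 32 and 23 reads and Ppbp 9 and 0, BPA first, and the rest were not listed. The exons of Itga10 and Itga1 overlap another annotated gene on the same strand, so a part of their reads could belong to it. The gene on Itga10 was listed with 15 reads with BPA and 17 in control.

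**Figure D2:**
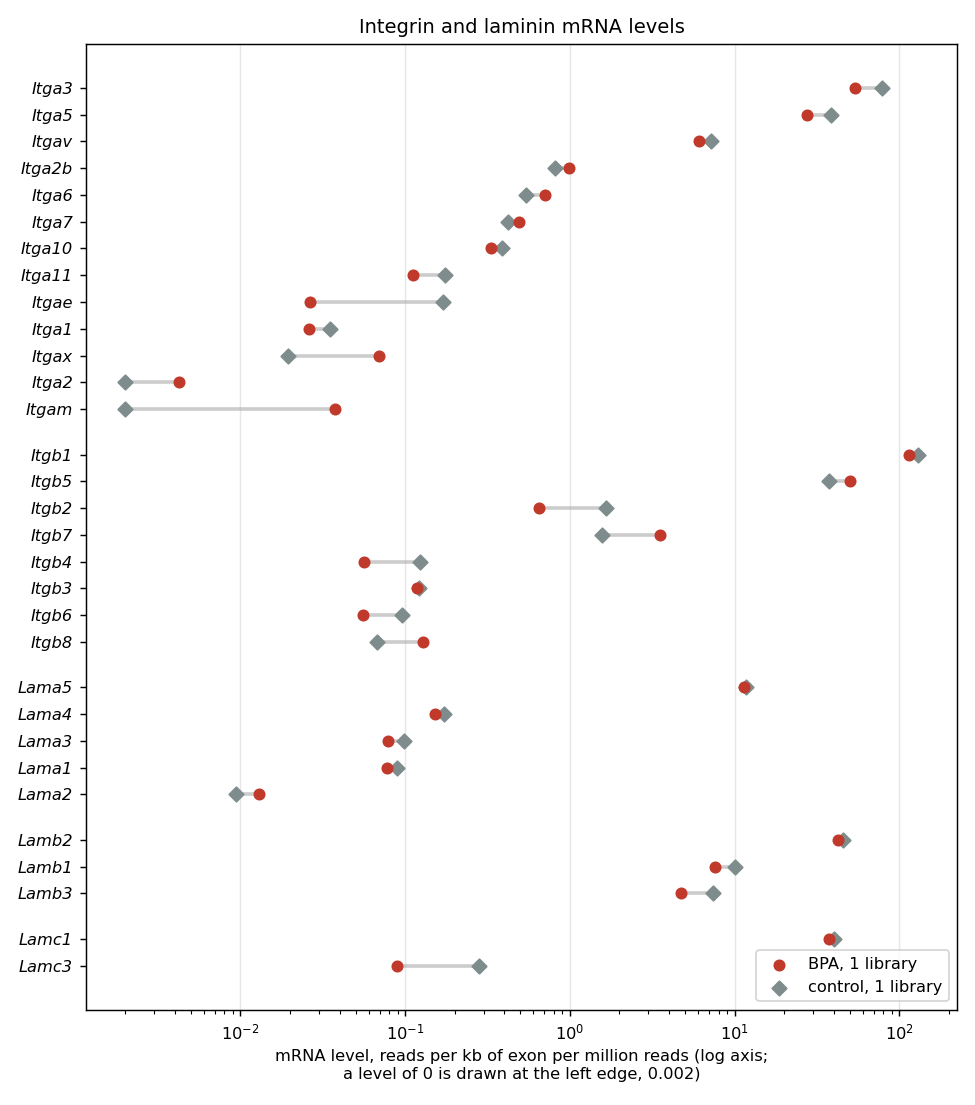
Level of 31 of the genes in the BPA library (red circles) and the control library (grey diamonds), in RPKM on a log axis, with genes grouped by subunit class. Itgb1, Itga3, Itgb5, Lamb2, Itga5 and Lamc1 are the most abundant genes in both libraries, and most other members lie under 1, with a level of 0 drawn at the left edge.

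The β subunits were led by Itgb1 and Itgb5, which differed in opposite directions. Itgb1 (chromosome 8, 128685654 to 128733200), the β1 subunit shared by most matrix receptors, had 15494 reads with BPA and 17094 in control, a level of 114.8 RPKM with BPA and 129.6 in control and a log2 ratio of -0.25 (-0.28 to -0.22). Itgb5 (chromosome 16, 33829665 to 33949338), the β5 subunit that pairs with αv to bind vitronectin, had 5923 reads with BPA and 4302 in control, a level of 50.4 RPKM with BPA and 37.5 in control and a ratio of 0.35 (0.29 to 0.41). Of all β subunit reads, Itgb5 made up 27.0% with BPA (exact Clopper-Pearson interval 26.5 to 27.6) and 19.7% in control (19.2 to 20.3). Itgb1 made up 70.7% with BPA (70.1 to 71.3) and 78.4% in control (77.9 to 79.0). The log2 ratio of Itgb5 to Itgb1 reads was 0.60 higher with BPA (0.54 to 0.67), and that of Itgb5 to Itgav, its partner, was 0.67 higher (0.57 to 0.77).

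The summed levels of the α and β subunits differed unequally. All 13 α subunits together stood at 90.2 with BPA and 127 in control, a log2 ratio of -0.50 with library totals as the scale. The 8 β subunits stood at 170 with BPA and 171 in control, a log2 ratio of -0.01 on the same scale. Against Itgb1, the reads of Itga3 were 0.38 lower on the log2 scale with BPA (-0.43 to -0.33) and those of Itga5 0.31 lower (-0.37 to -0.24). For Itgav the interval included 0, at -0.06 (-0.15 to 0.03).

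**Figure D3:**
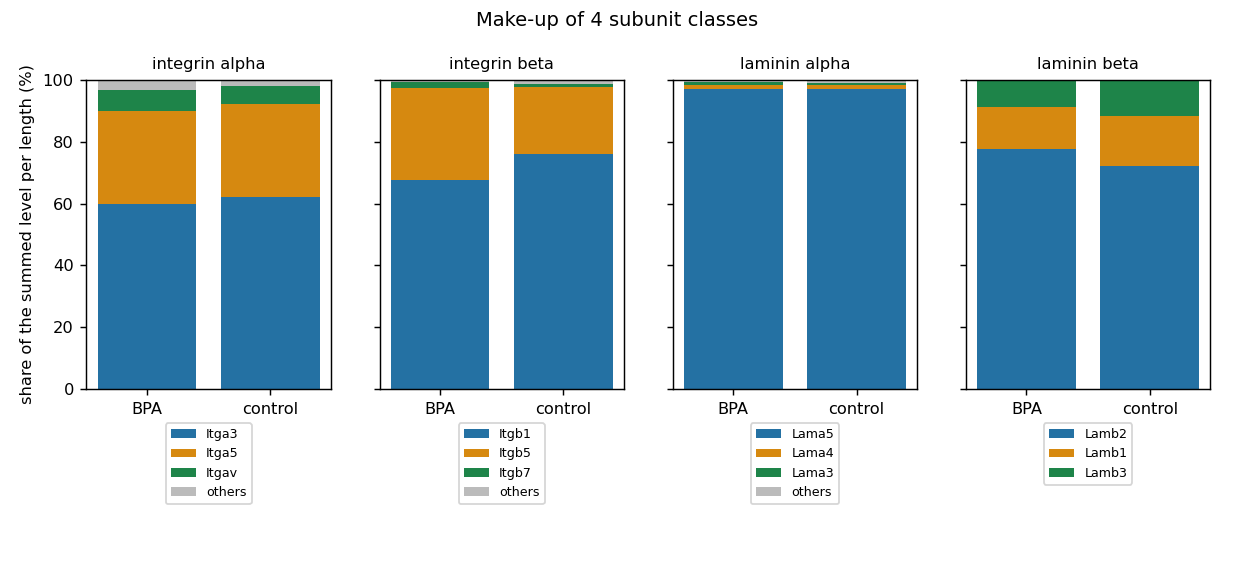
Share of each gene in the summed level per length of the integrin α, integrin β, laminin α and laminin β classes, in percent, with the BPA library left and the control library right in each panel. Itgb5 takes 29.7% of the β class with BPA and 21.9% in control, and Lamb2 takes 77.5% of the laminin β class with BPA and 72.2% in control, while Lama5 leads its class in both libraries.

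The promoters of the α3, α5 and β5 genes are shown because the first 2 were the most abundant α subunits, both lower with BPA, and the third was the abundant member that was higher. Each runs from 250 bases before to 50 after a start given by RefSeq (GRCm38.p6), with GGGCGG, the core of the SP family's sites, in capitals on either strand. They lie at chr11:95076665-95076964 on the minus strand for Itga3, chr15:103366742-103367041 on the minus strand for Itga5 and chr16:33829415-33829714 on the plus strand for Itgb5.
Itga3: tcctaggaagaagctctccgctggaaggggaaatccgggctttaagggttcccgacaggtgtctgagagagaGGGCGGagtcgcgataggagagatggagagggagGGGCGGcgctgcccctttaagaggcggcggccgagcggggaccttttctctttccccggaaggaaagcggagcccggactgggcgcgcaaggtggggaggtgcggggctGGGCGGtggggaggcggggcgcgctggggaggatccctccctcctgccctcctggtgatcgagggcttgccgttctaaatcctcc
Itga5: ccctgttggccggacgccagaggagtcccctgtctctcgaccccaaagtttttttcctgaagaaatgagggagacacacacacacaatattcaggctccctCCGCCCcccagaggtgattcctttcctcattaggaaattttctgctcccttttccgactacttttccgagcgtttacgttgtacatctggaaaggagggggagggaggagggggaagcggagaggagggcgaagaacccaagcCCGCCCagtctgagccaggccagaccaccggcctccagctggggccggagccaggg
Itgb5: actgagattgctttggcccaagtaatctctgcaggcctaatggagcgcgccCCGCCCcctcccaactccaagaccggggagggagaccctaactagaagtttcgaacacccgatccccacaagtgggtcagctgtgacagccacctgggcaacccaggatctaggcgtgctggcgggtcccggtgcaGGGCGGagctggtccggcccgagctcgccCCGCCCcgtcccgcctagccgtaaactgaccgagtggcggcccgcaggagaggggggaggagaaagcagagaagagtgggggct
All of them hold GGGCGG, with 3 matches in Itga3, 2 in Itga5 and 3 in Itgb5, and none holds the other motifs searched. These were TGANTCA of AP-1, GGAATG of TEAD factors and the CArG box of SRF, each searched on both strands. RefSeq promoters were found for 20 of the 32 genes, taking the start farthest upstream. GGGCGG was in 10 of the 20 and in 35.7% of the 32851 promoters of the same length. Of the 9 matched members with at least 1000 reads, 7 held it, where 70.7% of the 6636 matched genes with as many reads did. TGANTCA was in 1 of the 20 (Itgax) and in 7.81% of all promoters, GGAATG in 2 (Itga10 and Itgb1) and in 14.7%, and the CArG box in 1 (Lama2) and in 1.63%. The 32851 promoters were not reduced to 1 per gene, as those of the members were. With 1 promoter per gene, the 6636 genes with at least 1000 reads held TGANTCA in 4.08%, GGAATG in 11.1% and the CArG box in 1.43%. Of the 9 members with as many reads, 0, 1 and 0 held them. A match is a description of these letters and not a site of binding.

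The β subunits of leukocyte integrins were past 2-fold in opposite directions. Itgb7 (chromosome 15, 102215995 to 102231944), which in lymphocytes pairs with the α4 or αE subunit, had 325 reads with BPA and 141 in control, a level of 3.55 RPKM with BPA and 1.58 in control and a ratio of 1.09 (0.80 to 1.39). Itgb2 (chromosome 10, 77530252 to 77565708), the β2 subunit of white blood cells, had 66 reads with BPA and 163 in control, a level of 0.654 RPKM with BPA and 1.65 in control and a ratio of -1.40 (-1.85 to -0.99). The log2 ratio of Itgb7 to Itgb2 reads was 2.51 higher with BPA (1.99 to 3.03). Per length, Itgb7 was at 5.43 times Itgb2 with BPA and at 0.953 times in control.

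The α partners of these β subunits that were listed had few reads. Itgae (chromosome 11, 73090583 to 73147446), the αE partner of β7, had 4 reads with BPA and 25 in control, a ratio of -2.48 (-4.74 to -1.22), so it was lower where Itgb7 was higher. Of the partners of β2, Itgax (chromosome 7, 128129547 to 128150657) had 11 reads with BPA and 3 in control and a ratio of 1.49 whose interval included 0 (-0.16 to 4.24). Itgam had 6 reads with BPA and 0 in control, which with 3 counts per library in place of 0 was at least 1.85-fold higher, too few reads to pass the filter. It was listed under the identifier ENSMUSG00000108596, and a second gene of the symbol, ENSMUSG00000030786, was among the 7 annotated genes of the naming rule that the table used here did not list. The others were Itga4, Itga8, Itga9, Itgad, Itgal and Itgb2l, so neither the α4 partner of β7 nor the αL and αD partners of β2 were analysed here. Of 8 leukocyte markers, 6 were listed, with summed levels of 6.33 with BPA and 4.45 in control, of which Cd68, also found in other cells, was 5.68 and 3.62. Ptprc, the pan-leukocyte antigen CD45, had 0 reads with BPA and 3 in control, and Coro1a had 33 with BPA and 60 in control. The part of leukocytes in the β2 and β7 values was not tested.

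The remaining β subunits had few reads. Itgb4 (chromosome 11, 115974709 to 116008412), which pairs with α6 in hemidesmosomes, had 13 reads with BPA and 28 in control, a ratio of -1.16 (-2.29 to -0.22) from a level of 0.0560 RPKM with BPA and 0.124 in control. With a pseudocount of 5 its ratio was -0.96, short of 2-fold. Its exons overlap a noncoding gene on the opposite strand that had 6 reads with BPA and 4 in control. Of 9 epithelial markers, Itgb4 among them, 5 were listed with summed levels of 16.4 with BPA and 15.8 in control, of which Krt14 made up 14.6 and 14.0, while Krt5, its partner in basal cells, had 3 and 0 reads, BPA first. Krt8 was lower like Itgb4, with 22 reads with BPA and 37 in control and a ratio of -0.83 (-1.69 to -0.06), and Krt19 had 84 reads with BPA and 65 in control. The median of the 4 epithelial markers past the filter was -0.43, with 3 below 0. The part of other cell types in the Itgb4 value was not tested. Of the αv partners other than β5, Itgb8, which serves in the activation of latent TGF-β, had 47 reads with BPA and 24 in control and a ratio of 0.83 (0.12 to 1.63). Itgb6, an epithelial subunit, had 13 and 22 reads and Itgb3, the partner of αIIb, 23 and 23, BPA first, and the intervals of both included 0.

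**Figure D4:**
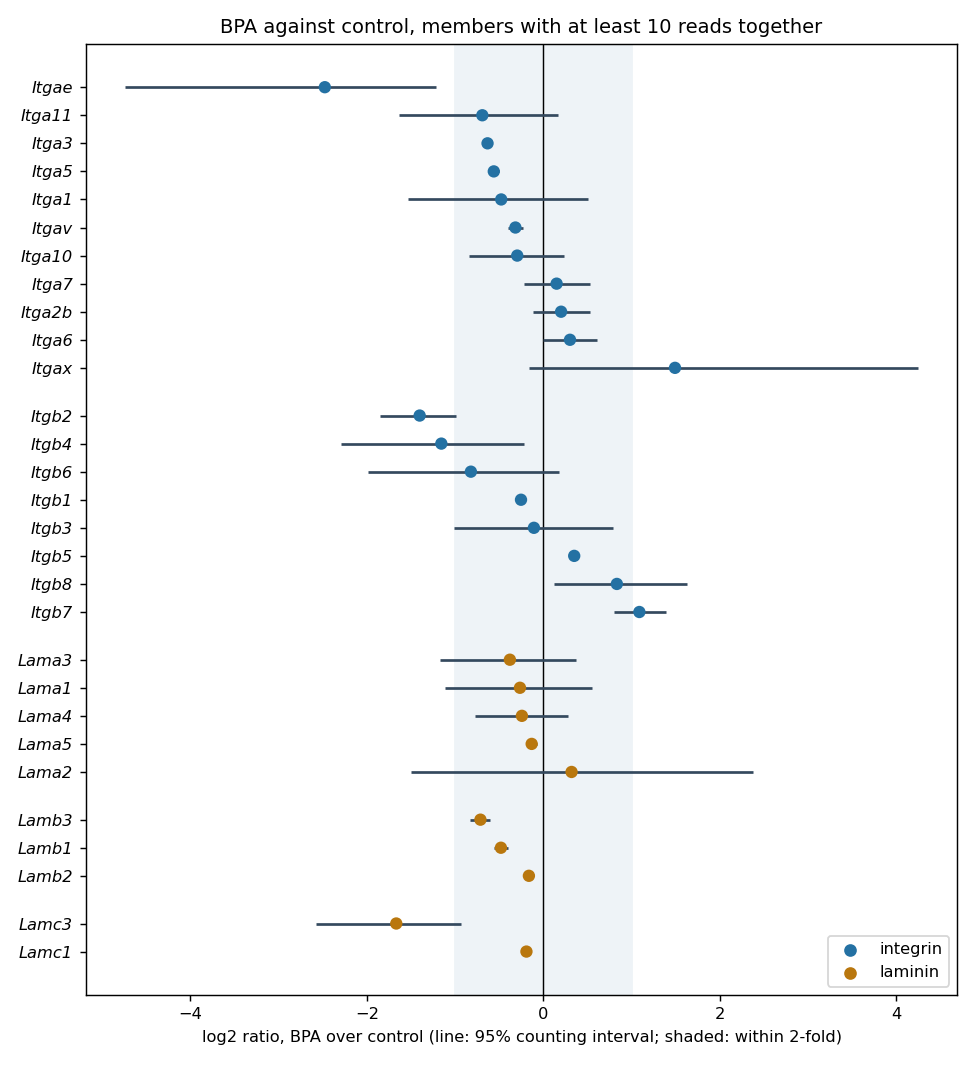
Log2 ratio of BPA over control for 29 members with at least 10 reads in both libraries together, grouped by subunit class, with 95% counting intervals as lines and the range within 2-fold shaded. The intervals of Itgae, Itgb2, Itgb4, Lamc3, Itgb7 and Itgb8 exclude 0 at low counts, and those of the abundant genes are narrower than most markers.

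Of the 11 laminin chains, all but Lama2 were below 0, where 48.1% of all genes were. Their median log2 ratio was -0.27 over 11 chains, and that of the 19 integrin subunits past the filter was -0.30. With at least 50 reads together the medians were -0.27 over 10 laminin chains and -0.052 over 12 integrin subunits. A single α chain carried the family. Lama5 (chromosome 2, 180176373 to 180225859), the α5 chain of many adult basement membranes, had 4273 reads with BPA and 4335 in control, a level of 11.3 RPKM with BPA and 11.8 in control and a ratio of -0.13 (-0.19 to -0.07), and it made up 97.2% of the α chain level with BPA and 97.0% in control. Lama4 had 61 reads with BPA and 67 in control, Lama3 28 and 34, Lama1 25 and 28, and Lama2 7 and 5. The intervals of these 4 α chains all included 0.

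The β and γ chains showed a graded difference. Lamb2 (chromosome 9, 108479736 to 108490530), the β2 chain and the most abundant laminin chain per length, had 8578 reads with BPA and 8895 in control, a level of 42.6 RPKM with BPA and 45.3 in control and a ratio of -0.16 (-0.21 to -0.12). Lamc1 (chromosome 1, 153218922 to 153332786), the γ1 chain found in most laminins, had 10205 reads with BPA and 10788 in control, a level of 37.3 RPKM with BPA and 40.4 in control and a ratio of -0.19 (-0.23 to -0.15). The log2 ratio of Lamb2 to Lamc1 reads was 0.03 higher with BPA (-0.03 to 0.09) and that of Lama5 to Lamc1 reads 0.06 higher (-0.01 to 0.13), intervals that include 0 and leave room for differences up to 0.13. Lamb1 (chromosome 12, 31265234 to 31329644), the β1 chain, lay further below its control, with 2501 reads with BPA and 3231 in control, a level of 7.63 RPKM with BPA and 10.1 in control and a ratio of -0.48 (-0.56 to -0.41). Set against Lamb2, its log2 read ratio was 0.32 lower with BPA (-0.40 to -0.23).

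The laminin β3 chain is best known from the basement membrane of the skin. Its gene Lamb3 (chromosome 1, 193207699 to 193343878) had 1035 reads with BPA and 1571 in control, a level of 4.73 RPKM with BPA and 7.35 in control. Its ratio of -0.71 (-0.83 to -0.60) was the lowest of the members with at least 1000 reads. Lama3 (chromosome 18), the α3 chain of the same membrane, stood at 0.0788 RPKM with BPA and 0.0979 in control, far under Lamb3 in both libraries. Lamc3, the γ3 chain (chromosome 2, 31887291 to 31946539), had 18 reads with BPA and 55 in control and a ratio of -1.67 (-2.58 to -0.93). The exons of Lama2, Lama3, Lamc3, Itgav and Itga7 each overlap an annotated gene on the opposite strand. The kit was strand-specific per the labels, but the sources used here do not give whether counting used the strand. Of these opposite genes, the one on Itga7 was listed, with 5 reads with BPA and 0 in control.

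Genes that work with integrins and laminins were described from lists of adaptors, membrane partners, receptors and ligands. Together 89 of these genes passed the filter. Their median was -0.22, and 64 were below 0, or 71.9% against 48.1% of all genes. Of the 89, 5 were past 2-fold downwards (Fras1, Nid2, Npnt, Thbs1 and Zyx), or 5.62% against 4.61% of all genes, and 3 upwards (Col17a1, Emp2 and Itgb1bp2), or 3.37% against 6.88%. Of 40 integrin adaptors and activators, 30 were below 0, where 48.1% of all genes were, with a median of -0.25 against 0.02. Zyx, the focal adhesion protein zyxin, had 9161 reads with BPA and 17022 in control and a ratio of -1.01 (-1.04 to -0.97), a lower ratio that was within 2-fold with library totals as the scale. Vcl, vinculin, was at -0.92 and Ptk2b, a kinase related to focal adhesion kinase, at -0.83. Talin (Tln1) was at -0.35, kindlin-2 (Fermt2) at -0.61 and the integrin-linked kinase Ilk at -0.34. Focal adhesion kinase (Ptk2) was at 0.01, and Parva, which binds the integrin-linked kinase, was the opposite, with 5668 reads with BPA and 3672 in control and a ratio of 0.51 (0.45 to 0.57). These 5 genes were named after their values were seen.

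Of 9 membrane partners, 5 were below 0, or 55.6%, near the 48.1% of all genes. The median of the 9 was -0.04, or 0.037 with library totals as the scale. Emp2, a tetraspan protein known to associate with integrins, had 10048 reads with BPA and 4140 in control and a ratio of 1.17 (1.12 to 1.22), the metastasis suppressor Cd82 was at 0.47 and Cav1, caveolin-1, at -0.46. Of the hemidesmosome genes, Plec was at -0.43, Dst at 0.11 and the tetraspanin Cd151 at 0.01. Col17a1 was past 2-fold at 1.16 from 23 reads with BPA and 9 in control. Laminin receptors outside the integrin family had a median of -0.21 over 7 genes, with the syndecans Sdc4, Sdc2 and Sdc1 at -0.59, -0.38 and -0.24. Dystroglycan (Dag1), also named after its value was seen, was at 0.02.

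The 13 basement membrane genes past the filter had a median of -0.38. Of them, 10 lay below 0, or 76.9% against 48.1% of all genes, and 3 (Fras1, Npnt and Nid2) were past 2-fold, or 23.1% against 4.61%. Fras1, from the membrane under developing epithelia, had 61 reads with BPA and 150 in control and a ratio of -1.39 (-1.86 to -0.97). Npnt, nephronectin, a ligand of the α8 integrin, had 1716 reads with BPA and 3467 in control and -1.13 (-1.21 to -1.04), and Col18a1 was at -0.70. Nid2, a nidogen that binds laminin γ1, had 26 reads with BPA and 68 in control and -1.46 (-2.21 to -0.83). Among 12 genes for RGD ligands, the median was -0.20. Of the 12, 10 lay below 0, or 83.3% against 48.1% of all genes. Thbs1, thrombospondin-1, was at -1.45 and Ltbp1, which binds latent TGF-β, at -0.54. Fn1, fibronectin, was at -0.04, while Spp1, at 0.41, and Tgfb1, at 0.45, were above 0. Fn1, Spp1 and Tgfb1 were named after their values were seen. Of 6 counter-receptors of leukocyte integrins, Vcam1 was at -0.66, F11r at 0.51 and Jam2 at -0.48, with a median of -0.42. Of the fibroblast markers, summed above, all 5 past the filter were below 0, against 48.1% of all genes, with a median of -1.09. Acta2 was at -1.36, Col1a1 at -1.12, Col1a2 at -1.09, Pdgfrb at -0.93 and Pdgfra at -0.61. Dcn went the other way, with 8 reads with BPA and 0 in control, too few to pass the filter. These genes were also named after their values were seen. The part of fibroblast markers in the matrix and adhesion values was not tested.

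**Figure D5:**
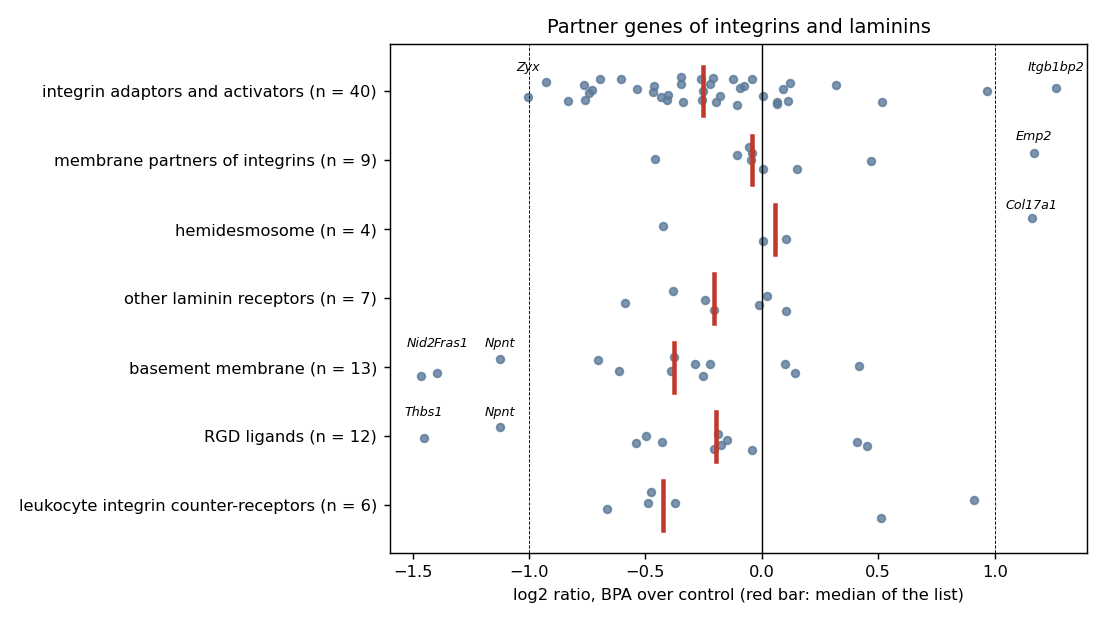
Log2 ratio of BPA over control (horizontal axis) for the genes of each partner list past the filter, 1 point per gene and a red bar at the list's median, with dashed lines at 2-fold. The medians of 6 lists lie between -0.42 and -0.04, the last being 0.037 with library totals as the scale, and that of the hemidesmosome list at 0.06.

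CircRNAs form when the end of an exon is joined back to the start of the same or an earlier one. The circRNA libraries held 17586 back-splice events with BPA and 12909 in control. The integrin and laminin genes gave 11 circRNAs from 5 hosts, with 15 events with BPA (Poisson 95% interval 8.40 to 24.7) and 3 in control (0.619 to 8.77). The ratio of these counts was 5.00 (1.41 to 26.9), and as shares of all events it was 1.88 on the log2 scale (0.05 to 4.31). Of the 11, 8 were seen with BPA alone, or 72.7% against 48.6% of the 9158 circRNAs in the table. In control alone 2 were seen, or 18.2% against 29.2%, and in both 1, or 9.09% against 22.2%. Of all circRNAs in the table, 5062 rested on a single event, so depth limits all of these counts.

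Itgb5 gave 4 circRNAs with 6 events with BPA and 0 in control, Itgav 3 with 5 and 2, Lamc1 2 with 3 and 0, Itga1 1 with 1 and 0, and Lama5 1 with 0 and 1, BPA first. Per host, no interval of the ratio of shares excluded equality. The largest count was 4 events with BPA and 1 in control, for the circle of exons 2 to 4 of Itgav (chr2:83736510-83755920), 338 bases of exon. The circRNAs of Itgb5 joined exons 2 to 8, 3 to 4, 2 to 3 and 4 to 5, with 2, 2, 1 and 1 events with BPA, and the exonic circle of Lamc1 joined exons 2 to 4 with 2 events. Of the 9 exonic circles, those of Itgav, Itgb5 (exons 2 to 8 and 2 to 3), Lamc1 and Itga1 began with exon 2. Every exonic junction was flanked by AG before the acceptor and GT after the donor in the reference genome.

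The junctions of circles with at least 2 events in both libraries together are shown because they identify the molecules. They were read from the GRCm38.p6 reference, not from reads, with the last 15 bases of the donor exon in lower case and the first 15 of the acceptor exon in capitals.
Itgav exons 2 to 4: ctccatgcaggtcaaCAGGATGTTTCTCCT
Itgb5 exons 2 to 8: atcaatgcgtacagtGGCTCAACATATGCA
Itgb5 exons 3 to 4: caatccgtgtattggTACTTTGGCAATCCA
Lamc1 exons 2 to 4: ccagcgagtgccttcGAAAGGCTTTTGACA
A further Itgav circle, with 0 events with BPA and 1 in control, had the same donor and an acceptor 3 bases further on, at 83736513, where the annotated transcripts Itgav-206 and Itgav-209 start exon 2. The reference at chr2:83736490-83736519 on the plus strand shows both acceptors, each after an AG, with the exon in capitals.
Upstream acceptor: acccggcttttgtgttttagCAGGATGTTT
Downstream acceptor: acccggcttttgtgttttagcagGATGTTT

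The circles of Lama5 (chr2:180192528-180192862) and of Lamc1 (chr1:153249173-153249564) that were called intronic rested on a single event each. Lama5 had 0 events with BPA and 1 in control, and Lamc1 had 1 with BPA and 0 in control. Both began at the first base of an intron, after exon 32 of Lama5 and exon 10 of Lamc1, and ended 23 and 20 bases before the next exon. As background, splicing releases introns as lariats, in which the first base is joined to a branch point near the end. Their junctions, with the end of the circle in lower case and its start at the 5′ splice site in capitals, are given for comparison.
Lama5 intron circle: gacccttgcaaagatGTGAGCCTCAGGGCT
Lamc1 intron circle: cttacaggggttctgGTGAGACTGTTCTCT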

How the data were processed

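Each library was assigned to BPA or control by its title and its treatment label. The tools named in the submitters' processing notes were STAR and StringTie for mRNA and STAR for circRNA, without versions, Bowtie 1.1.0 for miRNA, and the builds GRCm38 and mm10. The sources used here give no read counter, circRNA caller, annotation release or filter.

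The authors' mRNA values, as deposited, were log2 of scaled reads plus 1. Less 1, they were whole multiples of 1 step per library, 0.962 with BPA and 1.04 in control, within a tolerance of 0.001 in 100% of values, so reads were recovered by division and the authors' scaling was kept. The deposited circRNA values were log2 of 2 times a whole number plus 1, and each such whole number was taken as 1 event. If 2 reads stood behind each event, they always occurred together, so they would add no independent counts to the intervals. The deposited miRNA counts, 3452574 with BPA and 3927981 in control, were not compared. The authors' deposited p-values are quoted as theirs, and 8 other value columns were not used.

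Ratios used a pseudocount of 1 and a filter of 10 reads in both libraries together. The interval and the filter rest on the recovered reads. A fold change on the log2(value + 1) scale understates that of low genes. Exact conditional binomial and Poisson 95% intervals were used (SciPy 1.17.1, Python 3.11.15). Only the binomial one was run on simulated counts, drawn under the Poisson model it assumes, so this cannot show its coverage in real libraries. The binomial intervals compare the reads of 2 libraries. Both kinds cover counting error alone, because PCR copies are not independent molecules and the scaling has its own error. Levels per length used the exon union of GENCODE M21 (GRCm38), which held 22036 of the 22127 genes. TMM factors (edgeR 4.0.16, R 4.3.3) on the recovered reads, library totals, a pseudocount of 5, filters of 0, 50 and 1000 reads, a fold of 1.5 and leaving out overlapping genes were alternatives. The rule named every member, of which 1 is not reported here though the counts and medians include it, and of each partner list the 3 genes with the largest absolute ratio that reached 100 reads in either library. The members, lists and rules were chosen with earlier results of these data known.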

Additional observations from a re-analysis of the deposited data

How the results depend on the processing

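The median of the members stayed between -0.28 and -0.20 and that of the laminins between -0.28 and -0.19 under every alternative run for them. None of 142 single-member values under other scalings, pseudocounts or filters changed sign, and 8, all under library totals, left the counting interval. A filter cannot alter the ratio of a single member, and a larger pseudocount cannot change its sign. Only the values under TMM and library totals could therefore have changed sign. Fewer genes enter under stricter filters. With at least 50 reads together, 1 member was 2-fold higher, 2 were lower and the integrin median was -0.052. With at least 1000 reads, chosen after seeing the data, 0 were higher and 0 lower. A pseudocount of 5 left 1 member 2-fold higher and 3 lower, without Itgb4, and a fold of 1.5 gave 8 lower. Without members whose exons overlap another gene, also chosen after seeing the data, 2 were lower, since Itgb4 and Lamc3 drop out. Of the partner genes, 5 were 2-fold lower, against 8 with no filter and 4 with library totals, and 3 were higher, against 6 with no filter, 4 with library totals and 1 with a pseudocount of 5 or at least 50 reads. With library totals, which moved the median of all genes to 0.09, the median of the membrane partners was 0.037, against -0.04. The ratio of circRNA events from these genes was 10.0 for circRNAs with at least 2 events and 3.67 as a ratio of shares of all events, against 5.00. No paired analysis was possible because each group had 1 library. Depth limits the members under 50 reads and all circRNAs.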
